A study of Homo sapiens with 16 samples.

Results

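The integrated stress response regulators described here were 10 genes of the 33937 in the deposited count table. They were *ATF4*, its dimer partners and relatives *CEBPG*, *CEBPB*, *DDIT3* (which encodes CHOP), *ATF3* and *ATF5*, and the effectors *TRIB3*, *CHAC1*, *SESN2* and *DDIT4*. They were chosen by name with earlier results of these data known, the measured values behind the choice being the log2 fold changes of NAA40-KD (+dox) against SCR (+dox), in which *CHAC1* and *TRIB3* stood among the largest falls. All 10 were found in the table by their Ensembl identifiers and passed the filter on low counts in each fit, and the lowest level of any of them in any library was 7.53 CPM (counts scaled to the size of the library), for *CHAC1*.

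HCT116 is a human cell line from a colorectal carcinoma, and in the cells used here doxycycline (dox) switches on a short hairpin RNA against *NAA40*, an N-terminal acetyltransferase of histones H2A and H4 (NAA40-KD), or a scrambled control (SCR). Each was 1 stable line, so a difference between SCR and NAA40-KD cannot be told apart from a difference between the lines that is unrelated to *NAA40*. RNA-seq was done on 16 libraries in 4 groups, with 4 per group: each line had been grown for 96 h either with dox at a dose of 1 μg/ml, labelled (+dox), or without it, labelled (−dox). Levels below are CPM scaled with the trimmed mean of M-values (TMM), given as mean ± SD (n = 4), and differences are log2 fold changes ± SE.

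Cells that run short of amino acids or haem, accumulate unfolded proteins in the endoplasmic reticulum or sense double-stranded RNA phosphorylate the translation factor eIF2 through the kinases GCN2, HRI, PERK and PKR. General translation then falls while the *ATF4* transcript is translated more, and ATF4, a bZIP transcription factor, binds C/EBP-ATF response elements (CARE) as a dimer with other bZIP proteins to switch on genes for amino acid supply, redox balance and, when the stress persists, cell death. *ATF4* is controlled to a large part at translation, which the RNA level measured here does not show.

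*NAA40* itself was measured first as a check of the labels. Its level was 29.4 ± 3.62 CPM in SCR (−dox), 27.3 ± 1.44 in SCR (+dox), 30.3 ± 1.58 in the NAA40-KD libraries labelled (+dox) and 11.8 ± 1.93 in those labelled (−dox). The low group was thus the one labelled as untreated, at 40.2% of SCR (−dox) (p = 0.0286 by an exact permutation test, two-sided, and 70 arrangements of 4 against 4 allow none smaller), whereas the group labelled as treated stood at 111% of SCR (+dox) (p = 0.0571, same exact test). The sample titles and treatment labels call these libraries untreated, while the abbreviation in their column names, wDox, could be read either way. Each comparison is given by its titles and treatment labels, and no direction below is read as an effect of *NAA40* loss.

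Total counts ran from 11065606 to 13855486 per library. The library NAA40-KD (−dox) replicate 4 stood apart: the SD of its log2 differences from the other 3 libraries of its group was 0.877 over 14392 genes, against 0.188 to 0.370 for the other 15 libraries compared in the same way, and 30.0% of genes differed by more than 1 on the log2 scale. Where leaving it out changed a call or a value strongly, the value without it is given too. The epithelial markers *EPCAM*, *CDH1*, *KRT8* and *KRT18* reached at least 118 CPM in every library, the intestinal marker *CDX2* was at 16.8 to 31.4 CPM and *KRT20* at 1.09 to 7.38 CPM, while *CDX1* and *VIL1* stayed at or under 0.272 CPM, and the leukocyte and endothelial markers *PTPRC*, *CD3E*, *CD14*, *PECAM1* and *CDH5* at or under 0.444 CPM. The summed level of the 9 epithelial and colon markers was 3740 to 7300 CPM in NAA40-KD (−dox) and 2750 to 3970 CPM in the other groups, that of the 12 markers of other cell types 71.6 to 207 CPM and 61.8 to 102 CPM, mostly *COL1A1*. The part of these shifts in the results below was not tested.

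To place the regulators beside the element that ATF4 binds, the promoter windows in RefSeq (GRCh38.p14, 250 bases before to 50 after each annotated start, 27305 genes) were searched on both strands for TGATGNAA, the core of the CARE, which 4.46% of genes held in at least 1 window. It was found for 3 of the 10 regulators, *CHAC1*, *ATF3* and *CEBPG*, and for 10 of the 27 other ATF4 targets with a window (37.0%). The stretches of the 3 regulators are shown with those of *ASNS*, *SLC7A1* and *GARS1*, other ATF4 targets whose levels are given below, each turned so that the match, in capitals, reads in the same direction:
CHAC1: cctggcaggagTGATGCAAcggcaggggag
ATF3: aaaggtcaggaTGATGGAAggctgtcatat
CEBPG: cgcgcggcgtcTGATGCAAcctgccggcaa
ASNS: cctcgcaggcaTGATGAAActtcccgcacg
SLC7A1: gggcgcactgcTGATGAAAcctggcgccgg
GARS1: ggctcggagcaTGATGAAAtcgccgcgtaa

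The *CHAC1* stretch is chr15:40953251-40953280 on the − strand, opposite to the gene, with the match starting at −209 from the annotated start. That of *ATF3* is chr1:212565205-212565234 on the + strand (match at −191) and that of *CEBPG* is chr19:33374060-33374089 on the + strand (match at −42), both on the strand of the gene. Those of *ASNS* (chr7:97872458-97872487), *SLC7A1* (chr13:29595663-29595692) and *GARS1* (chr7:30594834-30594863) are all shown from the − strand. The AP-1 heptamer TGACTCA, in 6.05% of genes, was found for *DDIT3* and *ATF5*, and the octamer TGACGTCA, in 2.25%, for none of the 10. A match is a string of letters in a fixed window and no measured binding, and elements outside these windows were not looked for.

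The lines were compared under each label (plot of levels by library). In NAA40-KD (−dox) against SCR (−dox), whose libraries are not part of the +dox comparison known beforehand although the lines are the same, 4 of the 10, *CHAC1*, *TRIB3*, *SESN2* and *ATF5*, fell at an adjusted p under 0.05, where 3.54% of the 13903 genes tested fell, and 0 rose, where 2.88% did. In NAA40-KD (+dox) against SCR (+dox), all 10 were lower past that threshold, where 13.7% of 13869 genes were (10.9% were higher), and 7 of them were lower by more than 1 on the log2 scale, as 1.80% of genes were. Since that comparison was known when the genes were chosen, its values and counts are a description, are given with no p and support nothing. In bulk RNA, fewer cells that express a gene and less RNA per cell cannot be told apart. The ranges of the 4 libraries on each side did not overlap for all 10 regulators under the +dox labels (13.9% of genes were lower in this way) and for 5 of 10 under the −dox labels (11.9% of genes).

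**Figure D1:**
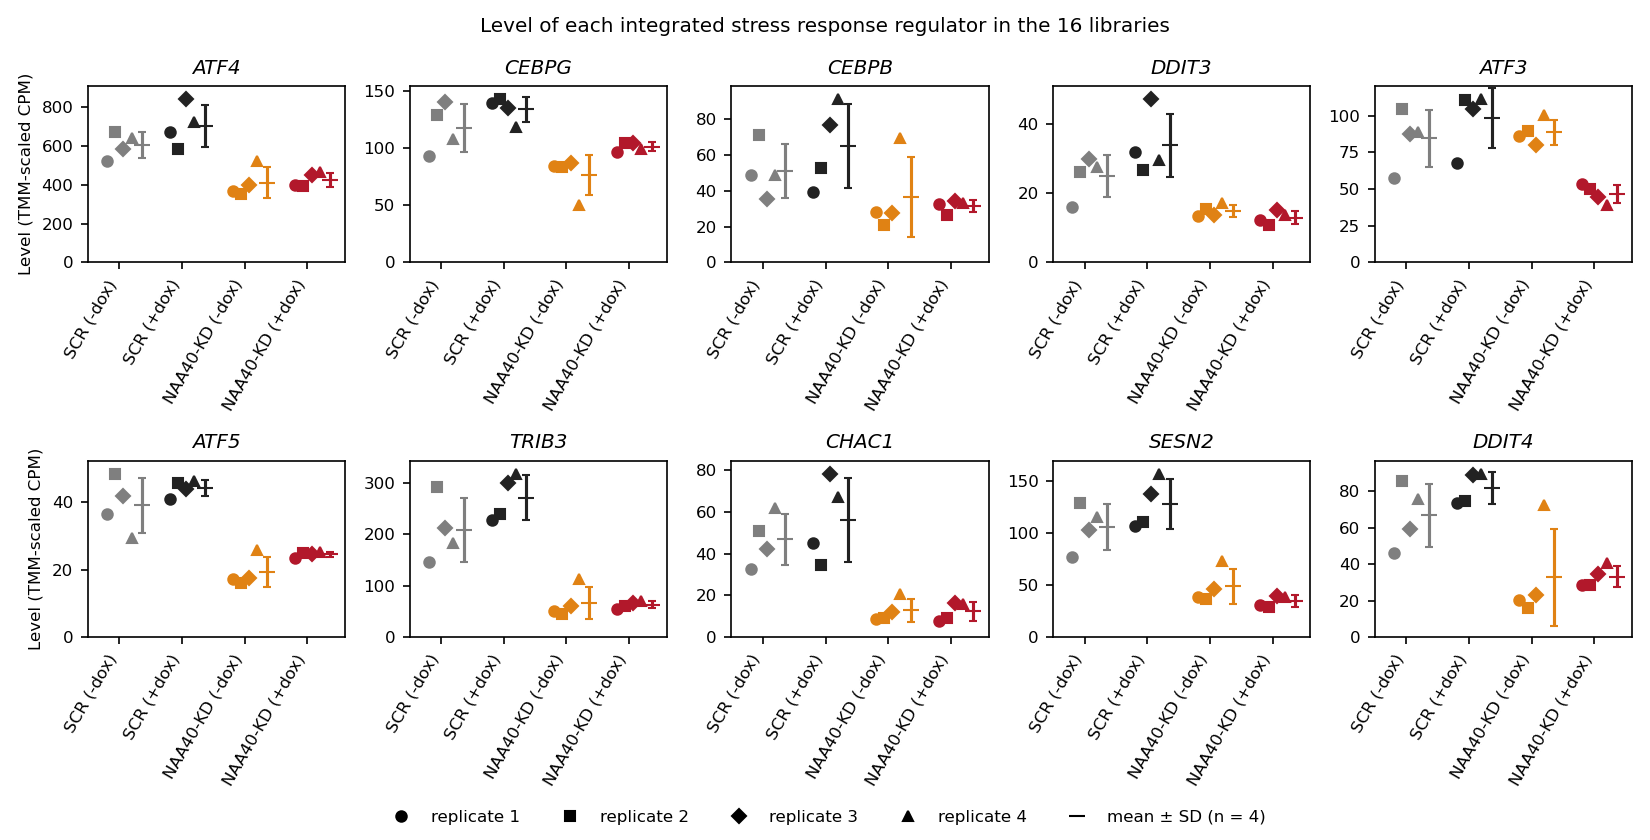
Level of the 10 regulators (vertical axis, TMM-scaled CPM from 0) in the 16 libraries by group, with a symbol for each replicate number and the mean ± SD of 4 beside it. The libraries of NAA40-KD (+dox) lie below all libraries of SCR (+dox) in each panel, *ATF3* is below all other libraries in NAA40-KD (+dox), and the triangle of NAA40-KD (−dox), replicate 4, lies above the other 3 for 9 genes and below them for *CEBPG*.

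The count of 4 depended on single libraries. Without NAA40-KD (−dox) replicate 4, all regulators but *ATF3* fell (9 of 10, where 19.4% of 13751 genes fell). With any one of the other 7 libraries left out, 1 to 3 fell, *CHAC1* each time. Shares of all genes are not given for these fits, so that count is not set against a background. NAA40-KD (−dox) replicate 4 was the highest of its group for 9 of the 10 regulators and the lowest for *CEBPG*.

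*ATF4* (chr22:39519695-39522685, + strand) had the highest RNA level per length of the set, 240.4 CPM per kb of exon in SCR (−dox) against 60.6 for *TRIB3*, the next. Its levels in replicates 1 to 4 were 524, 670.3, 582 and 641 CPM in SCR (−dox) and 367, 352, 399.6 and 525 CPM in NAA40-KD (−dox). The upper library of the second group, replicate 4, just reached above the lowest SCR library. The difference was −0.55 ± 0.17 (edgeR quasi-likelihood test, adjusted p = 0.0851, 95% interval −0.92 to −0.17), and −0.70 ± 0.10 without replicate 4 (adjusted p = 6.39e-05, edgeR). Under the +dox labels the levels were 671, 582, 841 and 725 CPM in SCR and 397, 392, 448 and 463 CPM in NAA40-KD, a difference of −0.73 ± 0.11 with no overlap. *ATF4* RNA thus stood at 68.0% of the SCR mean under the −dox labels and 60.3% under the +dox labels, one of the smaller differences of the set.

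*CEBPG* (chr19:33373330-33382686, + strand) encodes a short C/EBP protein that pairs with ATF4 on the CARE. Its levels were 92.9, 129, 140.2 and 108 CPM in SCR (−dox), 139.7, 143, 135 and 119 CPM in SCR (+dox), 84.9, 83.9, 87.4 and 50.5 CPM in NAA40-KD (−dox) and 96.7, 105, 105 and 99.4 CPM in NAA40-KD (+dox). It was the only regulator for which replicate 4 of NAA40-KD (−dox) lay below its group, and the 2 NAA40-KD groups did not overlap, the −dox one being the lower. The differences between the lines were −0.61 ± 0.21 (edgeR adjusted p = 0.113) under the −dox labels, −0.47 ± 0.12 without replicate 4 (edgeR adjusted p = 0.00620), and −0.40 ± 0.09 under the +dox labels, the smallest of the set there.

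*CEBPB* (chr20:50190734-50192689, + strand) encodes a C/EBP factor with activating and inhibiting isoforms, which gene counts do not separate. Its levels ran from 35.3 to 71.5 CPM in SCR (−dox), 39.2 to 91.4 CPM in SCR (+dox) and 26.3 to 34.2 CPM in NAA40-KD (+dox). In NAA40-KD (−dox) they were 27.9, 20.9, 27.4 and 69.6 CPM, so that replicate 4 was within the SCR range and the other 3 below all SCR libraries. The difference under the −dox labels was −0.47 ± 0.38 (edgeR adjusted p = 0.492, 95% interval −1.33 to 0.38) and −1.01 ± 0.20 without replicate 4 (edgeR adjusted p = 0.00249). Under the +dox labels it was −1.05 ± 0.19.

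*DDIT3* (chr12:57516588-57521737, − strand) encodes CHOP, the ATF4-induced factor linked to death under lasting stress. Its level per library was 16.1, 26.1, 29.8 and 27.6 CPM in SCR (−dox) and 13.3, 15.4, 13.8 and 17.1 CPM in NAA40-KD (−dox), where SCR replicate 1 lay inside the NAA40-KD range. The difference was −0.73 ± 0.21 (edgeR adjusted p = 0.0707), and −0.82 ± 0.17 without NAA40-KD replicate 4 (edgeR adjusted p = 0.00217). The +dox libraries of *DDIT3* were at 31.8, 26.8, 47.2 and 29.7 CPM in SCR and at 12.2, 10.9, 15.0 and 13.6 CPM in NAA40-KD, without overlap and with a difference of −1.39 ± 0.16. Its exons share bases with *MBD6* and *MARS* on the opposite strand, and whether the counting used strand is not given in the sources used here, so its counts could hold reads of those genes. The same holds for *ATF5* with *NUP62* and *IL4I1*, for *CEBPB* with *CEBPB-AS1* (240 counts over all 16 libraries) and for *DDIT4* with *DDIT4-AS1*, while the other 6 share exon bases with no annotated gene. On the same strand, exons of *DDIT3* also share bases with *AC022506.1* and those of *ATF5* with *MIR4751*, neither of them in the count table.

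*ATF3* (chr1:212565334-212620777, + strand), an early stress gene whose protein mostly represses, was the regulator whose level in NAA40-KD was low under 1 label only. Its levels were 57.5, 104, 87.7 and 88.7 CPM in SCR (−dox), 67.9, 111, 104 and 111 CPM in SCR (+dox) and 85.9, 89.3, 79.9 and 100.2 CPM in NAA40-KD (−dox), 3 groups with overlapping ranges. In NAA40-KD (+dox) they were 53.2, 49.8, 44.9 and 39.1 CPM, below every other library. The line difference was 0.08 ± 0.19 under the −dox labels (edgeR adjusted p = 0.843, 95% interval −0.35 to 0.51) and −1.08 ± 0.14 under the +dox labels. Without SCR (−dox) replicate 1, the lowest library of its group, the −dox value was −0.07, and without NAA40-KD (−dox) replicate 4 it was 0.0045 (adjusted p = 0.985, edgeR).

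*ATF5* (chr19:49928702-49933935, + strand), a relative of *ATF4* that is also controlled at translation and linked to the mitochondrial stress response, fell under the −dox labels, with a difference of −1.01 ± 0.22 (edgeR adjusted p = 0.0269) and of −1.20 ± 0.14 without NAA40-KD replicate 4 (edgeR adjusted p = 1.76e-05). Its libraries ran from 29.4 to 48.5 CPM in SCR (−dox) and from 16.2 to 25.8 CPM in NAA40-KD (−dox), without overlap. The +dox ranges were 41.0 to 46.5 CPM in SCR and 23.5 to 25.1 CPM in NAA40-KD, with a difference of −0.85 ± 0.09.

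Of the effectors, *TRIB3* (chr20:362835-397559, + strand), a pseudokinase that binds ATF4 and CHOP and dampens their activity, was at 145, 293, 212 and 183 CPM in SCR (−dox) and at 50.3, 44.2, 59.9 and 113 CPM in NAA40-KD (−dox). All 4 NAA40-KD libraries were below all SCR libraries, and the difference was −1.62 ± 0.33 (edgeR adjusted p = 0.0236), or −2.02 ± 0.21 without replicate 4 (edgeR adjusted p = 6.12e-05). With the +dox labels SCR had 229, 239, 299.8 and 318 CPM and NAA40-KD 54.6, 60, 66.8 and 70 CPM, a difference of −2.11 ± 0.12, which left 23.2% of the SCR level.

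*CHAC1* (chr15:40952962-40956519, + strand) encodes an enzyme that degrades glutathione, and had the largest difference of the set under both labels. Its levels were 32.6, 50.8, 42.1 and 61.7 CPM in SCR (−dox), 45.1, 34.5, 78.3 and 67.3 CPM in SCR (+dox), 8.79, 9.34, 12.2 and 20.9 CPM in NAA40-KD (−dox) and 7.53, 9.30, 16.2 and 16 CPM in NAA40-KD (+dox). Every NAA40-KD library was below every SCR library. The difference was −1.86 ± 0.32 under the −dox labels (edgeR adjusted p = 0.0119) and −2.19 ± 0.27 under the +dox labels, leaving 27.3% and 21.8% of the SCR level. It was the regulator that stayed past the threshold in all 16 alternative fits of the −dox comparison, with a log2 fold change between −2.22 and −1.70.

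*SESN2* (chr1:28259527-28282491, + strand), a leucine-binding inhibitor of mTORC1, fell under the −dox labels from a range of 76.6 to 129 CPM in SCR to 36.7 to 73.6 CPM, a difference of −1.11 ± 0.26 (edgeR adjusted p = 0.0377), or −1.39 ± 0.15 without NAA40-KD replicate 4 (edgeR adjusted p = 1.31e-05). The gap between those ranges was narrow, since NAA40-KD replicate 4 was the highest of its group. The +dox ranges were 107 to 157 CPM in SCR and 28.9 to 39.5 CPM in NAA40-KD, and the difference −1.89 ± 0.13.

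*DDIT4* (chr10:72273920-72276036, + strand) encodes REDD1, another inhibitor of mTORC1 signalling, which hypoxia and glucocorticoids also induce. Its levels were 46.1, 85.6, 59.5 and 75.7 CPM in SCR (−dox) and 20.2, 15.9, 23.0 and 72.6 CPM in NAA40-KD (−dox). Replicate 4 was 3.68 times the mean of the other 3 and lay within the SCR range, while the others lay below it. The difference of −1.0 ± 0.46 did not pass the threshold (edgeR adjusted p = 0.228, 95% interval −2.04 to 0.03), and without that library it was −1.76 ± 0.20 (edgeR adjusted p = 6.38e-05). SCR (+dox) had 73.7, 74.7, 89.0 and 89.6 CPM and NAA40-KD (+dox) 28.4, 28.7, 34.6 and 40.7 CPM, without overlap and with a difference of −1.30 ± 0.12.

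**Figure D2:**
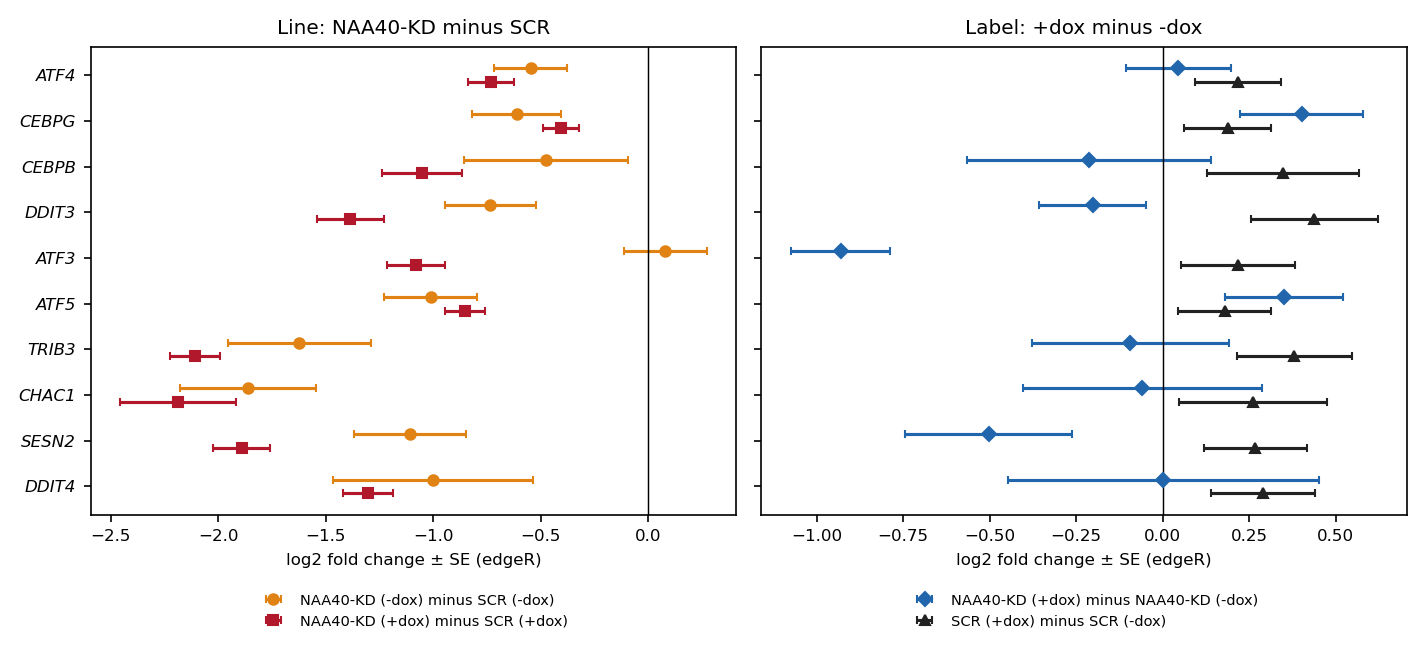
Log2 fold change ± SE (horizontal axis) of each regulator between the lines (left, circles for the −dox and squares for the +dox labels) and between the dox labels within a line (right, diamonds for NAA40-KD and triangles for SCR), each from 4 against 4 libraries. Except for *ATF3* under the −dox labels, the line differences lie left of 0, the largest being −2.19 for *CHAC1*, whereas differences between the dox labels lie between −0.50 and 0.44 apart from *ATF3* in NAA40-KD, at −0.93.

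Few of the regulators passed the threshold between the dox labels of a line. Within SCR, 0 of the 10 passed the threshold, as did 0 of all 13882 genes (271 genes, 1.95%, at an unadjusted p under 0.05, and 0 also by DESeq2 and limma-voom). All 10 were nonetheless nominally higher in SCR (+dox), by 0.18 (*ATF5*) to 0.44 (*DDIT3*) on the log2 scale, where 49.6% of genes were above 0. The library SCR (−dox) replicate 1 was the lowest of its group for 8 of the 10. This comparison shares its libraries with both line comparisons. The genes were chosen with values against SCR (+dox) known, which can favour this sign, so nothing is read from the 10 signs.

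Within NAA40-KD, 1 of 10 passed the threshold, *ATF3*, which was lower in the libraries labelled +dox (−0.93 ± 0.14, or −0.87 ± 0.08 without NAA40-KD (−dox) replicate 4), where 5.50% of 13844 genes were. In either direction 10.2% of genes passed, so 1 of 10 is near the background. The NAA40-KD libraries, too, are part of the line comparisons. The other 9 lay between −0.50 ± 0.24 (*SESN2*) and 0.40 ± 0.18 (*CEBPG*). Without NAA40-KD (−dox) replicate 4, 6 were higher past the threshold in NAA40-KD (+dox), *DDIT4* (0.75 ± 0.14), *ATF5* (0.53 ± 0.09), *CEBPB*, *TRIB3*, *CEBPG* and *ATF4* (0.19 to 0.31), where 25.8% of 13700 genes were higher. That library therefore decided whether these 6 counted as different between the 2 NAA40-KD groups.

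The test of the difference itself, the change between dox labels in NAA40-KD minus that in SCR over all 16 libraries, passed the threshold for *ATF3* only (−1.15 ± 0.26), where 4.91% of 14392 genes passed in that direction. In either direction 9.22% of genes passed, so 1 of 10 is near the background. This test holds the +dox comparison known beforehand, so its values are a description. For *ATF4* the value was −0.17 ± 0.20 (95% interval −0.59 to 0.25), for *TRIB3* −0.47 ± 0.36 and for *CHAC1* −0.32 ± 0.45 (95% interval −1.27 to 0.64). The intervals are wide, so these line differences were not shown to differ between the labels, nor to be equal. *SESN2* (−0.77 ± 0.30) and *DDIT3* (−0.64 ± 0.28) had the next largest values. NAA40-KD (−dox) replicate 4 moved several of these values: without it they were −0.04 ± 0.15 for *ATF4*, −0.10 ± 0.24 for *TRIB3*, 0.02 ± 0.40 for *CHAC1*, whose sign turned, −0.51 ± 0.21 for *SESN2*, −0.57 ± 0.26 for *DDIT3* and −1.09 ± 0.23 for *ATF3*, which alone passed the threshold.

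**Figure D3:**
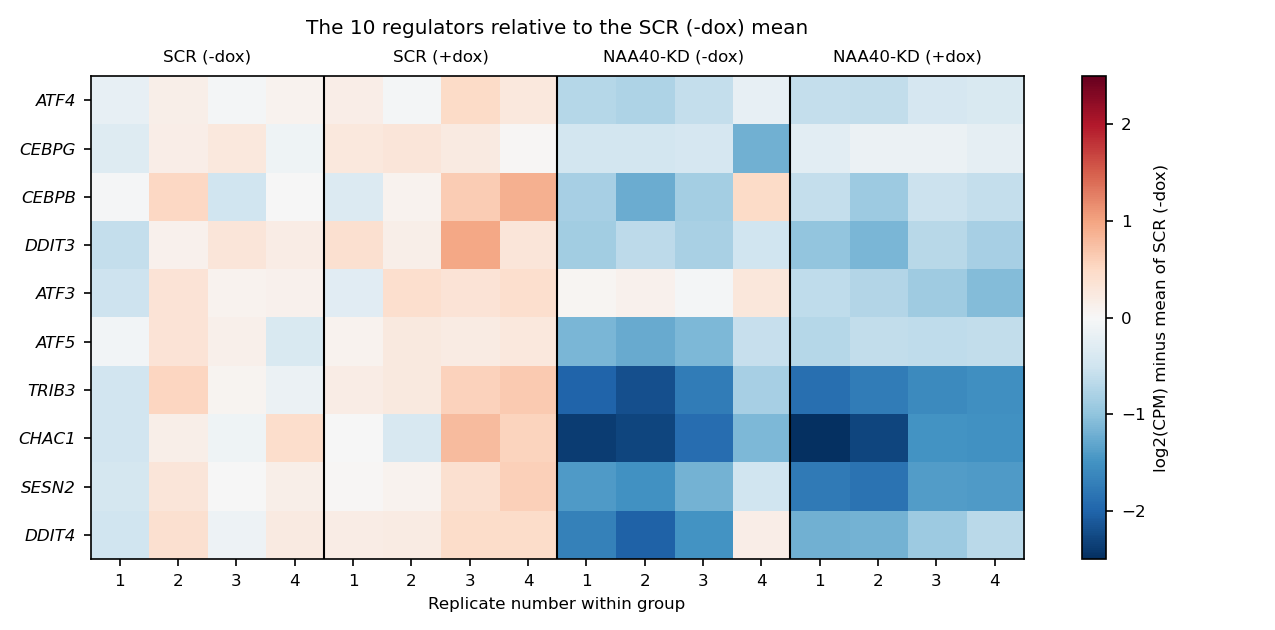
Log2 level of the 10 regulators (rows) in each of the 16 libraries (columns, by group and replicate number) minus the mean of SCR (−dox), with blue for lower and red for higher on a scale of up to 2.5 either way. The columns of NAA40-KD are blue for most rows, the *ATF3* row is at its darkest blue in NAA40-KD (+dox), and NAA40-KD (−dox) replicate 4 is paler or red for every row except *CEBPG*.

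In the order of group means, both NAA40-KD groups were below both SCR groups for 9 of the 10 genes, with *ATF3* as the exception, as they were for 22.4% of 14392 genes. The +dox groups that were known when the genes were chosen are part of this order, so nothing is read from the count. The 2 SCR groups overlapped for all 10 (0.828% of genes were lower and 0.756% higher in SCR (+dox) without overlap). The 2 NAA40-KD groups overlapped for all but *ATF3* and *CEBPG*, where 14.2% of genes were lower and 15.5% higher in NAA40-KD (+dox) without overlap, so that 2 of 10 is not above the background. The step from the upper NAA40-KD group to SCR (−dox) was free of overlap for *ATF4*, *TRIB3*, *CHAC1*, *SESN2*, *DDIT4* and *ATF5* (6 of 10, where 3.14% of genes had this order and no overlap), and not for *DDIT3*, *CEBPB* and *CEBPG*, although NAA40-KD (−dox) replicate 4 reached into the SCR range for *ATF4* and *DDIT4*. Group means of all 10 regulators were lower in NAA40-KD (+dox) than in either SCR group. Mean *NAA40* was 30.3 CPM in that group and 11.8 CPM in NAA40-KD (−dox). These values include the +dox groups known beforehand and are a description. Whether the regulators follow the *NAA40* level was not tested.

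Upstream of ATF4, the 18 genes of the eIF2 kinases and of eIF2 handling did not share a direction. In the −dox comparison 1 rose and 0 fell (6.42% of all genes passed), and in the +dox comparison 4 rose and 4 fell (24.5% passed), with list medians of 0.03 under both labels beside 0.04 and −0.0042 over all genes. Leaving out NAA40-KD (−dox) replicate 4, 6 rose and 3 fell in the −dox comparison. *EIF2AK4*, the kinase GCN2 that senses uncharged tRNA, rose under both, by 0.62 ± 0.15 (adjusted p = 0.0387) and 0.47 ± 0.08 (adjusted p = 3.90e-04, edgeR as for all p-values of genes in these lists). *EIF2AK1* (the haem-regulated kinase HRI) and *EIF2AK2* (PKR, which senses double-stranded RNA) rose under the +dox labels, by 0.30 ± 0.08 (adjusted p = 0.0104) and 0.56 ± 0.11 (adjusted p = 0.00170). *EIF2AK3* (PERK, the kinase of the endoplasmic reticulum) had values of 0.65 ± 0.20 (adjusted p = 0.0872) and 0.23 ± 0.13 (adjusted p = 0.209). In the −dox comparison without replicate 4, *EIF2AK3* rose by 0.81 ± 0.10 (adjusted p = 2.22e-05), *EIF2AK1* by 0.49 ± 0.08 (adjusted p = 1.69e-04) and *EIF2AK2* by 0.39 ± 0.10 (adjusted p = 0.00496).

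*PPP1R15A*, or GADD34, the stress-induced subunit that brings a phosphatase to eIF2 and closes the response, was at 130.4 ± 35.7 CPM in SCR (−dox), 166 ± 22.1 in SCR (+dox), 118 ± 37.3 in NAA40-KD (−dox) and 71.3 ± 9.32 in NAA40-KD (+dox). It passed the threshold between the lines under the +dox labels only, as did *ATF3*, *ATF4*, *DDIT3*, *DDIT4*, *CEBPB* and *CEBPG*. The line differences of *PPP1R15A* were −0.14 ± 0.26 (adjusted p = 0.796) and −1.22 ± 0.11 (adjusted p = 4.30e-07). The difference between them was −1.07 ± 0.29 (adjusted p = 0.0290). Without NAA40-KD (−dox) replicate 4 the −dox value was −0.40 ± 0.17 (adjusted p = 0.0833). *EIF2S2*, the beta subunit of eIF2, was −0.69 ± 0.11 under the +dox labels (adjusted p = 2.98e-04).

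The other targets of ATF4 were listed from general knowledge, with earlier results of these data known. As for the other lists, the +dox counts and p-values are therefore a description. Genes named from each list were picked mainly for the largest changes. Of the 34 other targets, 31 were tested. Of these, 7 fell and 0 rose under the −dox labels (3.54% of all genes fell), and under the +dox labels 24 fell and 0 rose (13.7% fell), with list medians of −0.52 and −0.69. Without NAA40-KD (−dox) replicate 4, 23 fell and 2 rose under the −dox labels (19.4% of all genes fell and 17.1% rose). The falls were led by *SLC7A11*, the cystine transporter that feeds glutathione synthesis, at 144 ± 23.9 CPM in SCR (−dox) and 29.4 ± 10.7 in NAA40-KD (−dox), −2.29 ± 0.28 (adjusted p = 0.00373), and −1.49 ± 0.11 under the +dox labels (adjusted p = 3.94e-08).

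The serine synthesis enzymes *PSAT1* and *PSPH* fell under both labels, *PSAT1* with −1.56 ± 0.22 (adjusted p = 0.00634) and −1.19 ± 0.10 (adjusted p = 1.16e-07) and *PSPH* with −1.04 ± 0.15 (adjusted p = 0.00616) and −0.67 ± 0.10 (adjusted p = 1.12e-04). *NIBAN1*, a stress-induced gene, had −1.49 ± 0.31 (adjusted p = 0.0253) and −1.16 ± 0.15 (adjusted p = 3.41e-05). *PCK2*, the mitochondrial phosphoenolpyruvate carboxykinase, and *ASNS*, asparagine synthetase, fell under the +dox labels, with −1.54 ± 0.10 (adjusted p = 1.57e-08) and −1.48 ± 0.15 (adjusted p = 1.64e-06). Their −dox values were −1.06 ± 0.35 (adjusted p = 0.103) and −0.53 ± 0.27 (adjusted p = 0.261), and both fell there without NAA40-KD (−dox) replicate 4, with −1.48 ± 0.24 (adjusted p = 0.00109) and −0.73 ± 0.21 (adjusted p = 0.0159).

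Of the other genes whose CARE stretch is printed above, *SLC7A1*, a cationic amino acid transporter, had −0.60 ± 0.13 (adjusted p = 0.0305) under the −dox labels and −0.20 ± 0.09 (adjusted p = 0.108) under the +dox labels. *GARS1*, the glycyl-tRNA synthetase, had −0.67 ± 0.14 (adjusted p = 0.0255) and −0.69 ± 0.08 (adjusted p = 1.15e-05). These genes were chosen for display after their values were seen. Within SCR, all 31 ATF4 targets were nominally higher under the +dox label, as the 10 regulators were (49.6% of all genes were). Of the 31, 0 were past the threshold (5 at an unadjusted p under 0.05), and the list median was 0.21. Nothing is read from these signs either.

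The other arms of the unfolded protein response, run by IRE1 and ATF6, were represented by 20 genes, of which 0 passed under the −dox labels (2 at an unadjusted p under 0.05, where 23.6% of all genes were, list median −0.00072) and 6 under the +dox labels, 5 of them lower (list median −0.19). The −dox counts without NAA40-KD (−dox) replicate 4 were 3 up and 1 down. *HSPA5*, which encodes the chaperone BiP of the endoplasmic reticulum, was −1.22 ± 0.08 (adjusted p = 1.57e-08) under the +dox labels, and its line differences under the +dox and −dox labels differed by −0.86 ± 0.18 (adjusted p = 0.00619). *HERPUD1*, of the degradation machinery of that compartment, fell with −0.85 ± 0.09 (adjusted p = 3.88e-06) under the +dox labels. *ERN1* (IRE1 itself) and *XBP1* (its spliced target) fell there with −0.43 ± 0.13 (adjusted p = 0.0186) and −0.41 ± 0.10 (adjusted p = 0.00739). Under the −dox labels *HERPUD1* had −0.41 ± 0.14 (adjusted p = 0.116), and without replicate 4 it fell (−0.40 ± 0.10, adjusted p = 0.00434). *HSPA5*, *ERN1* and *XBP1* did not pass there with or without that library.

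Among other bZIP factors, which can dimerize with the regulators or compete for their sites, 1 of 32 tested rose and 1 fell under the −dox labels (2.88% and 3.54% of all genes), and 12 of 31 fell and 0 rose under the +dox labels (13.7% and 10.9%), while without NAA40-KD (−dox) replicate 4 the −dox counts were 4 and 8 of 31. The pair that passed under the −dox labels was *FOS* (−1.80 ± 0.39, adjusted p = 0.0270) and *CREB3L2* (0.64 ± 0.15, adjusted p = 0.0357), a membrane-bound factor of the secretory pathway. The largest falls in the +dox comparison were those of the AP-1 subunits *JUNB* (−0.85 ± 0.13, adjusted p = 1.04e-04) and *JUN* (−0.79 ± 0.15, adjusted p = 8.77e-04), the small MAF protein *MAFF* (−0.83 ± 0.14, adjusted p = 3.20e-04) and *NFIL3* (−0.78 ± 0.10, adjusted p = 2.24e-05). The line difference of *MAFF* also differed between the labels, with −1.38 ± 0.30 (adjusted p = 0.00802). Under the −dox labels *MAFF* had 0.57 ± 0.24 (adjusted p = 0.196). *JUNB*, *JUN* and *NFIL3* had −0.70 ± 0.33, −0.13 ± 0.36 and −0.52 ± 0.19 there (adjusted p = 0.243, 0.871 and 0.135). Without replicate 4 these 3 fell, with −1.18 ± 0.13, −0.62 ± 0.20 and −0.38 ± 0.10 (adjusted p = 1.34e-05, 0.0331 and 0.0101).

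The close paralogues of the effectors were read beside them, against the shares of all genes given for the bZIP factors. Of *TRIB1*, *TRIB2*, *CHAC2*, *SESN1*, *SESN3* and *DDIT4L*, 0 passed under the −dox labels (2 at an unadjusted p under 0.05; 2 rose and 1 fell without NAA40-KD (−dox) replicate 4). In the +dox comparison *TRIB2* rose by 0.46 ± 0.13 (adjusted p = 0.0150), and *SESN3* and *TRIB1* fell, with −0.59 ± 0.18 (adjusted p = 0.0218) and −0.26 ± 0.09 (adjusted p = 0.0340).

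Of 8 death genes linked to CHOP, 1 fell and 0 rose under the −dox labels (3.54% and 2.88% of all genes) and 5 fell and 1 rose under the +dox labels (13.7% and 10.9%). When NAA40-KD (−dox) replicate 4 was left out, 2 fell and 3 rose under the −dox labels. *TNFRSF10B*, the death receptor DR5, fell under both, with −0.71 ± 0.17 (adjusted p = 0.0421) and −1.07 ± 0.08 (adjusted p = 8.83e-08). *GADD45A*, a growth arrest gene, had −0.83 ± 0.23 (adjusted p = 0.0588; −1.01 ± 0.17 and adjusted p = 6.42e-04 without replicate 4) and −1.20 ± 0.10 (adjusted p = 9.66e-08). *ERO1A*, an oxidase for disulfide formation, and *BBC3*, which encodes the BH3-only protein PUMA, fell under the +dox labels, with −0.78 ± 0.10 (adjusted p = 2.24e-05) and −0.68 ± 0.13 (adjusted p = 9.21e-04). For *BBC3* the −dox value was 1.14 ± 0.39 (adjusted p = 0.117), and the difference between the labels, −1.79 ± 0.43, passed the threshold (adjusted p = 0.0161). Without replicate 4 these were 0.54 ± 0.14 (adjusted p = 0.00955) and −1.22 ± 0.21 (adjusted p = 1.77e-04).

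The programs of p53 and hypoxia, which share some of these genes, were read for comparison. Of 15 p53 targets, 2 rose and 0 fell under the −dox labels (2.88% and 3.54% of all genes), *XPC* (0.63 ± 0.14, adjusted p = 0.0323) and *BTG2* (0.56 ± 0.13, adjusted p = 0.0360), and 3 rose and 2 fell under the +dox labels (10.9% and 13.7%), with list medians of 0.36 and 0.14. *SESN2* is itself also known as a p53 target. Of 11 hypoxia targets tested, 0 passed under the −dox labels (1 at an unadjusted p under 0.05) and 4 fell under the +dox labels. The latter were led by *ANGPTL4* (−0.76 ± 0.12, adjusted p = 2.34e-04) and *NDRG1* (−0.63 ± 0.09, adjusted p = 4.60e-05). Their −dox values were 1.00 ± 0.31 (adjusted p = 0.0894) and 0.20 ± 0.18 (adjusted p = 0.546). The differences between the labels, −1.74 ± 0.34 (adjusted p = 0.00518) and −0.82 ± 0.20 (adjusted p = 0.0160), passed the threshold. *ANGPTL4* rose under the −dox labels without replicate 4 (0.58 ± 0.14, adjusted p = 0.00445). Without NAA40-KD (−dox) replicate 4, the −dox counts were 5 up and 1 down for the p53 targets and 2 up and 2 down for the hypoxia targets.

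**Figure D4:**
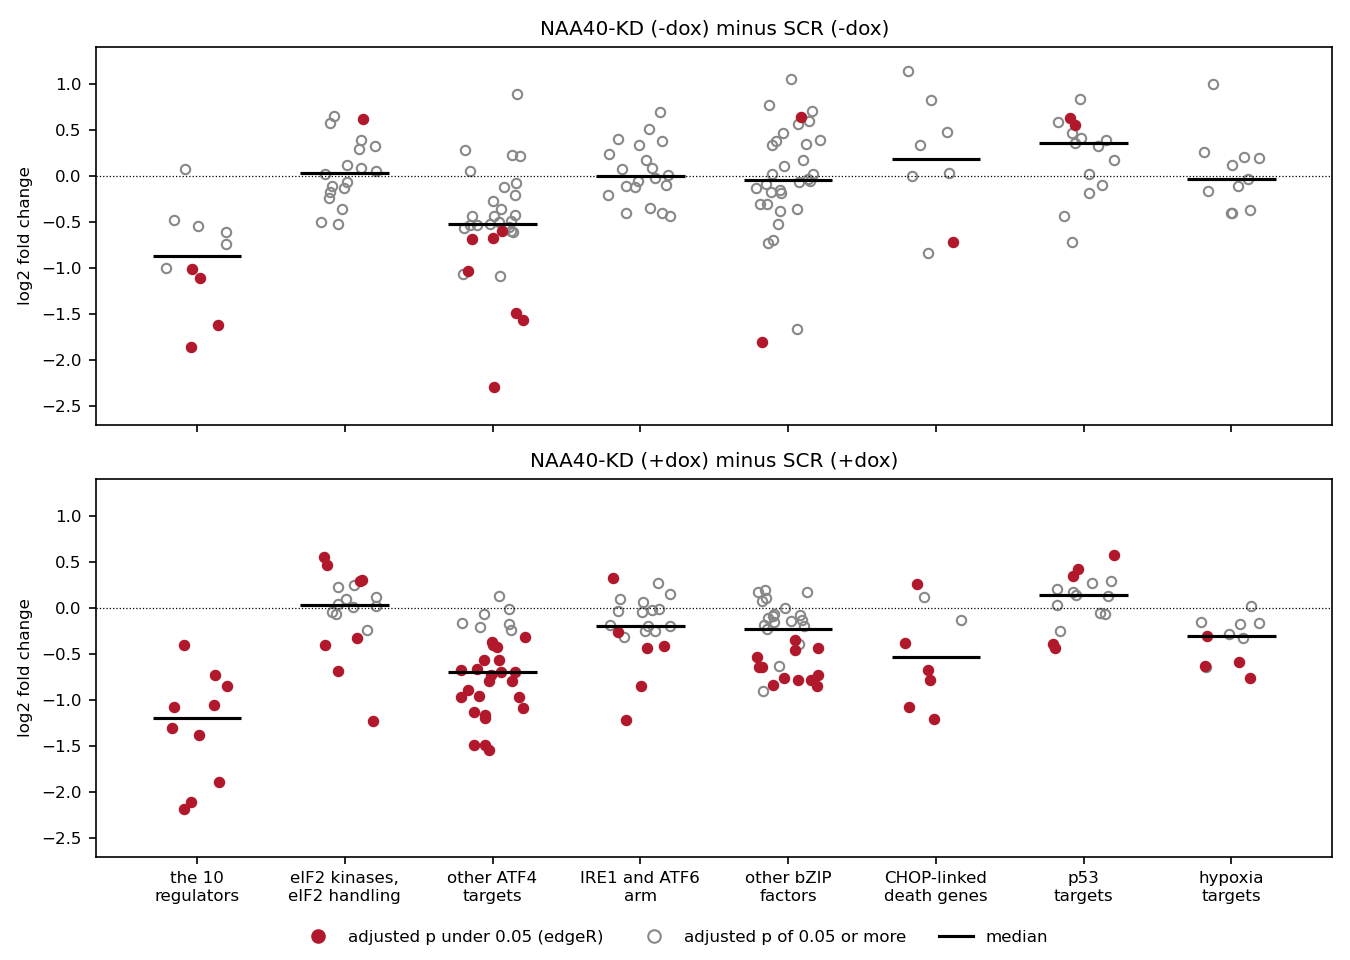
Log2 fold change (vertical axis) of each tested gene of the 10 regulators and 7 of the lists, for the −dox labels (upper panel) and the +dox labels (lower panel), with filled points for an adjusted p under 0.05 and a bar at the list median. The medians of the regulators (−0.87 and −1.19) and of the other ATF4 targets (−0.52 and −0.69) lie below those of the other lists in both panels.

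The genes most like each regulator over the 16 libraries, out of 11129 genes with a mean of at least 5 CPM, were found by Pearson's r of log2 CPM. Because the lines differ, r over all libraries includes that difference, so for some genes the values within the 8 libraries of each line are given too, all as a description. *ATF4* was most like *SLC3A2*, the heavy chain of amino acid transporters (r = 0.963 over all 16, 0.831 within SCR and 0.955 within NAA40-KD), *STC2* (0.961) and *SMOX* (0.961). *TRIB3* was most like *SEPHS2* (0.981), *PCK2* (0.979 over all 16, 0.973 and 0.975 within the lines) and *GADD45A* (0.976), and *CHAC1* like *PFDN1* (0.965), *STC2* (0.962) and *SEPHS2* (0.954). *SESN2* was most like *ESYT1* (0.986), *JDP2* (0.972) and *CTSB* (0.966), and *DDIT4* like *AIFM2* (0.978), *SMOX* (0.972) and *SZRD1* (0.969).

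Some neighbours were shared between regulators. *DDIT3* was most like *GADD45A* (r = 0.938), *S100A14* (0.933) and *SEPHS2* (0.929), and within NAA40-KD these values were 0.585, 0.290 and 0.509. *ATF5* was most like *ACP7* (0.977), *PLEK2* (0.971) and *SMOX* (0.958), *CEBPB* like *PTMS* (0.942), *KCNG1* (0.937) and *RNF187* (0.936), and *CEBPG* like *MALT1* (0.977), *IARS1* (0.956) and *MCL1* (0.951). *ATF3* had the lowest values, for *HLA-DRB1* (0.917), *PIM2* (0.914) and *LAT2* (0.910). The library NAA40-KD (−dox) replicate 4 is part of each of these values.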

How the data were processed

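RNA-seq of HCT116 cells was analysed in 16 libraries, 4 for each of 4 groups taken from the sample labels. According to the methods the authors used STAR for alignment and featureCounts for counting, and they deposited raw counts for 33937 genes, without normalization. The methods name the build mm10, the submitters' processing notes list hg38 and GRCm38, and all 33937 identifiers were human Ensembl identifiers (33811 found in GENCODE release 29, GRCh38). For RNA and libraries the methods and the labels name different kits. The methods state independent RNA samples. Libraries of a group differed by more than sampling noise (chi-square per gene 1.74 to 140), and p-values measure the spread between these libraries.

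From the counts, edgeR 4.0.16 in R 4.3.3 was used with TMM scaling and its robust quasi-likelihood test, two-sided, adjusted by Benjamini-Hochberg over all genes with CPM above 1 in at least 4 libraries of the fit. The 4 comparisons of 4 against 4 used their own 8 libraries, and the interaction all 16. SE was obtained from the log2 fold change and the F statistic. "Fell" and "rose" mean an adjusted p under 0.05. The 10 genes and the lists were chosen with earlier results of these data known, and no set test was run. A p is given for the 10 genes in the −dox line comparison only, because the others share libraries with the comparison known beforehand. In simulated counts for the −dox comparison, edgeR recovered 44.9% of changes of 1 on the log2 scale and 96.0% of changes of 2. Levels per kb used the union of GENCODE exons, and likeness used log2(CPM + 0.1).

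The genes named are the 10 regulators, *NAA40*, the 4 eIF2 kinases, and from each list up to 4 genes past the threshold with the largest change in either line comparison, plus the 3 genes most like each regulator. Alternatives were DESeq2 1.42.0, limma-voom (limma 3.58.1), library-size and upper-quartile scaling, no filter, CPM above 1 in every library, 1 fit of all libraries together, a block for the replicate number, leaving out each library, an adjusted p under 0.01 and a log2 fold change above 1. Leaving out NAA40-KD (−dox) replicate 4 for the lists was added after the data were seen. The number of count columns not matched to a sample was 0.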

Additional observations from a re-analysis of the deposited data

Results flagged for a closer look

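Among 44 groups of 4 libraries checked (the 10 regulators and *NAA40* in 4 groups each, of which chance flags about 1 in 20), 5 held a library far from the other 3 by Dixon's test. 4 of these were NAA40-KD (−dox) replicate 4: *DDIT4* at 72.6 CPM against 23.0 in the next library, *CEBPB* at 69.6 against 27.9, *ATF5* at 25.8 against 17.6, and *CEBPG*, low at 50.5 against 83.9. The other was *ATF3* in SCR (+dox) replicate 1, at 67.9 CPM against 104 in the next. *DDIT4* and *CEBPB* in NAA40-KD (−dox) replicate 4 were within the range of SCR (−dox). What sets this library apart was not tested.

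*ATF3* was the regulator whose line difference changed with the dox label at an adjusted p under 0.05 (edgeR, over all 16 libraries), by −1.15 on the log2 scale. Of all genes, 4.91% passed in that direction and 9.22% in either, so 1 of 10 is near the background. The test holds the +dox comparison known when the genes were chosen, so the value is a description. Without NAA40-KD (−dox) replicate 4 the value was −1.09, also past that threshold.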

How the results depend on the processing

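In the −dox comparison the count of 4 (6.42% of all genes passed) was 6 with DESeq2, which called 1914 of 13903 genes. It was 0 at an adjusted p under 0.01 (edgeR) and 7 at an unadjusted p under 0.05 (23.6% of genes). With a library left out it was 1 to 9, and 9 without NAA40-KD (−dox) replicate 4 (36.5% of 13751 genes). In the fit over all 16 libraries it was 8. Shares of all genes are not given for that fit, for 0.01 or for the other libraries left out, so those counts are not set against a background. *ATF3* had −0.0683 to 0.196 with a library left out, reversing without SCR (−dox) replicate 1. In the +dox line comparison *CEBPB* and *CEBPG* each passed in 15 of 16 alternative fits, and the other regulators in all 16. Between the dox labels of NAA40-KD the count was 1, where 10.2% of all genes passed. It was 1 to 7 with a library left out, 7 without NAA40-KD (−dox) replicate 4, where 52.4% of 13700 genes passed. With a log2 fold change above 1 also required it was 0. The interaction count of 1 (9.22% of all genes passed) was 0 at an adjusted p under 0.01 (edgeR). It was 3 at an unadjusted p under 0.05, where 25% of all genes passed. *NAA40* in NAA40-KD (+dox) was 109 to 113% of SCR (+dox) with a library left out, with an exact permutation p of 0.0286 without NAA40-KD (+dox) replicate 3. Genes of all pathway lists past the threshold numbered 13 (−dox line comparison), 16 (dox labels in NAA40-KD) and 14 (interaction), against 29, 39 and 28 with DESeq2 and 68, 102 and 47 without NAA40-KD (−dox) replicate 4. Over all genes, DESeq2 called 1914 in the −dox line comparison and 2526 between the dox labels of NAA40-KD, and edgeR 892 and 1414. The cause of these changes was not tested.

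With the replicate number as a block, 1 regulator (*CHAC1*) passed in the −dox comparison, as did 3 list genes, and 5 list genes passed between the dox labels of NAA40-KD. Shares of all genes are not given for the fits with a block. The block left the counts of regulators in the other 4 comparisons unchanged. Same-numbered libraries did not deviate together throughout (correlations of −0.469 to 0.271), so the numbers were not taken as pairs.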
